A study of Mus musculus with 6 samples.

Results

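Rab GTPases are small GTP-binding proteins that mark the membranes of the secretory and endocytic routes. Exchange factors (GEFs) load them with GTP at a membrane, the GTP form recruits effectors such as tethers, motors and coat adaptors, GTPase-activating proteins (GAPs) end the signal, and GDP dissociation inhibitor (GDI) takes the lipid-modified protein back to the cytosol. Mesenchymal stem cells use these routes to export matrix and signalling proteins and to return integrins and growth factor receptors to the surface.

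Members were all rows of the deposited gene table whose symbol is Rab followed by a number and at most a paralog letter and a further number, which gave 57 of 23358 rows. They were placed in 4 classes by the step they are known for. There were 22 secretory, 11 endocytic and 10 recycling Rabs, and the remaining 14 (lysosome-related organelles, cilia, ubiquitin ligase adaptors and less studied members) are called other Rabs. The row named Rab1 is Rab1a and Rab7l1 is Rab29 in current nomenclature. The table's coordinates were read as GRCm38, since all 56 members found in GENCODE M21 by symbol (Rab7l1 as Rab29) overlapped the gene of that symbol.

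RNA was sequenced from bone marrow mesenchymal stem cells of C57BL/6 mice at passage 6 to 12. A group of 3 libraries came from cells transfected with an siRNA against Dia2 at 50 nM, and a group of 3 came from cells given a non-targeting control siRNA, with RNA taken 24 h after the medium was replaced. Dia2 is the formin Diaph3, which nucleates unbranched actin filaments. Both groups went through transfection, there was no untransfected group, and the labels do not say whether replicates were separate cultures, so the p-values rest on differences among libraries that may be technical repeats. The Dia2 group received a single siRNA. For the control siRNA neither a dose nor a sequence was given in the sources used here, so its sequence was not analysed.

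Deposited counts summed to 78529650, 95573070 and 91953694 in the Dia2 siRNA libraries and to 110006338, 80390882 and 70538768 in the control libraries. The row of the ribosomal RNA precursor Rn45s held 6.05% to 10.9% of counts with Dia2 siRNA and 6.0% to 11.7% with control siRNA, highest in Dia2 replicate 1 and control replicate 3. Of 10 mesenchymal stem cell markers, 9 were tested and all 9 rose, where 29.3% of all genes tested were higher and 29.9% lower. Levels are given as CPM (counts relative to the library total, scaled by TMM factors). The 10 markers summed to 3166 to 3243 CPM with Dia2 siRNA and 2219 to 2291 CPM with control siRNA. Itgb1 gave the largest part of these sums, with means of 1831 CPM with Dia2 siRNA and 1428 CPM with control siRNA. The surface marker Thy1 was at 0 in 2 Dia2 siRNA libraries and 1 control library and reached at most 0.107 CPM. Summed markers of blood cells and macrophages were 6.09 to 8.12 CPM with Dia2 siRNA and 11.2 to 12.4 CPM with control siRNA, with 3 of the 5 tested lower (Cd53, Itgb2, Cd68). Endothelial markers summed to 0.812 to 0.958 CPM with Dia2 siRNA and 1.34 to 1.51 CPM with control siRNA, epithelial markers to 0.213 to 0.396 CPM and 0.125 to 0.203 CPM in the same order of groups, and Emcn and Epcam were at 0 throughout. The part of these marker differences in the Rab results was not tested.

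The targeted gene was low in every Dia2 siRNA library. Diaph3 had 7.52, 8.37 and 7.39 CPM with Dia2 siRNA and 84.7, 80.1 and 84.8 CPM with control siRNA. The log2 fold change of Dia2 over control siRNA was -3.42 ± 0.07 (SE, edgeR quasi-likelihood test, adjusted p = 1.66e-11), a 10.7-fold lower level. The target of the Dia2 siRNA lies in Diaph3 on the minus strand and spans an exon junction (chr14:86910029-86910045 and chr14:86906031-86906038), in 4 of the gene's 9 annotated transcripts. It is shown because it is what distinguishes the groups. Capitals mark the word that pairs with bases 2 to 8 of the siRNA's antisense strand.
Dia2 siRNA target: cagagtccatgattcagAACTTAAt
The longest run of this target found in any Rab transcript was 10 bases, in Rab13 and Rab23.

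Of the 57 Rabs, 48 had enough counts to be tested, and 30 of them (62.5%) differed between the groups at an adjusted p under 0.05 (edgeR, Benjamini-Hochberg over all genes tested). Over all 14151 genes tested the share was 59.2%, so the Rabs as a family were called about as often as other genes. There were 18 higher and 12 lower Rabs, against 29.3% of all genes higher and 29.9% lower. The median log2 fold change of the 48 was 0.053, with a range of -1.23 to 1.60, and that of all genes tested was 0.005. The median absolute log2 fold change was 0.342 for the Rabs and 0.304 for all genes. Differences of at least 2-fold were called for 3 Rabs (Rab40b higher, Rab20 and Rab39b lower) of 48, and for 8.58% of all genes. CPM values of the groups did not overlap for 31 Rabs, against 64.6% of all genes. In these bulk libraries, a change in RNA per cell and a change in the share of cells that express a gene cannot be told apart.

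The 9 untested members were the secretory Rab26 and Rab3c, the endocytic Rab9b, the recycling Rab17, and Rab19, Rab33a, Rab38, Rab39 and Rab44. None exceeded 0.146 CPM in any library, and Rab17 and Rab39 were at 0 in all 6. A floor of 6 counts corresponds to 0.0545 to 0.0851 CPM in these libraries, and Rab33a, Rab26 and Rab9b passed it in 1 library or more, with at most 14, 12 and 8 counts. The other 6 did not exceed it in any library, so a lower level of these was not detectable at this depth.

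Levels per length, as the deposited RPKM (reads scaled by gene length and library total), spanned more than 3 orders of magnitude. Rab7, which drives late endosome to lysosome traffic, had the highest value, 185 ± 8.03 RPKM with Dia2 siRNA and 242 ± 16.6 RPKM with control siRNA (SD, n = 3 each). Its listed length of 624 bases is the coding sequence alone, which raises this value relative to genes listed with their UTRs. Next came Rab5c of early endosomes with means of 81.5 and 85.9 RPKM, the endoplasmic reticulum (ER) to Golgi Rab1b with 68.9 ± 4.23 and 91.0 ± 11.7 RPKM, and Rab1 with 60.3 and 81.1 RPKM, each with the Dia2 siRNA mean before the control mean. Rab14, of endosome to Golgi and recycling traffic, led the recycling class with 48.3 ± 0.849 RPKM with Dia2 siRNA and 49.1 ± 3.04 RPKM with control siRNA. Rab34, linked to cilia and lysosome position, led the other Rabs with 32.0 ± 2.19 and 34.8 ± 2.70 RPKM. These leading members act in nearly all cell types.

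**Figure D1:**
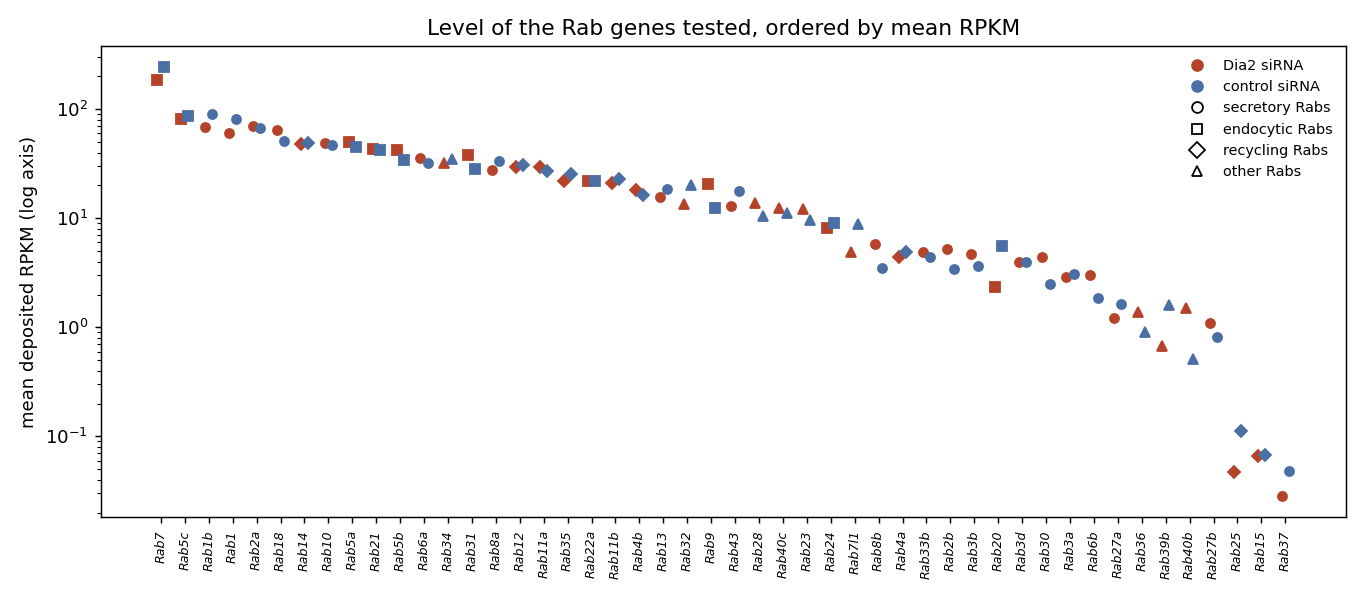
Mean deposited RPKM (log axis) of the 48 tested Rab genes in the order of their mean over both groups, with Dia2 siRNA in red left of control siRNA in blue and n = 3 libraries each; marker shape gives the class. Rab7 stands highest at 185 RPKM with Dia2 siRNA and 242 RPKM with control siRNA, and the gaps between the groups are small beside the range between genes.

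The direction of the summed Rab signal depended on the scale. Over the family it was 3152 ± 75.7 CPM with Dia2 siRNA and 3103 ± 108 CPM with control siRNA (SD, n = 3 each), with groups that overlapped. As deposited RPKM, which weights genes by length and carries no TMM factor, it was 1202 ± 29.9 with Dia2 siRNA and 1270 ± 24.9 with control siRNA, with groups that did not overlap. Within classes, the CPM sums, Dia2 siRNA before control siRNA, were 1366 ± 57.4 and 1383 ± 74.8 CPM for secretory Rabs, 577 ± 12.2 and 583 ± 12.2 CPM for recycling Rabs, and 250 ± 1.11 and 248 ± 1.59 CPM for other Rabs. Secretory Rabs as RPKM summed to 443.7 ± 2.72 with Dia2 siRNA and 468.5 ± 1.97 with control siRNA, again apart. Endocytic Rabs summed to 959 ± 8.73 CPM with Dia2 siRNA and 889 ± 22.8 CPM with control siRNA, but as RPKM to 493 ± 19.4 and 527 ± 17.9, where the short listed length gives Rab7 more weight. Among the 24 more abundant Rabs 6 were higher and 7 lower, with a median log2 fold change of 0.024. Among the 24 less abundant ones 12 were higher and 5 lower, with a median of 0.118. Over all genes tested 29.3% were higher and 29.9% lower, and genes of like abundance were not set beside either group of Rabs. The split used deposited RPKM with its uneven listed lengths, and whether level and direction go together was not tested.

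Of 20 secretory Rabs tested, 9 were higher, 6 lower and 5 not called (75.0% called, median log2 fold change 0.099), where 59.2% of all genes were called, 29.3% higher and 29.9% lower. Whether any Rab class differs from other genes was not tested. The 4 largest rises were in minor Golgi and exocytic members, Rab30, Rab8b, Rab6b and Rab2b, while the abundant ER to Golgi members Rab1 and Rab1b fell. Rab30, a Golgi Rab also recruited to autophagosomes around bacteria, had 10.4, 10.7 and 9.60 CPM with Dia2 siRNA and 5.25, 5.45 and 6.44 CPM with control siRNA. Every Dia2 siRNA library was above every control library, and the log2 fold change was 0.84 ± 0.09 (adjusted p = 8.04e-06). Rab8b, which with Rab8a carries cargo from the Golgi and recycling endosome to the plasma membrane, had 38.2, 32.2 and 30.2 CPM with Dia2 siRNA and 18.6, 18.8 and 21.8 CPM with control siRNA. The groups were again apart, and the level was 1.70-fold higher (log2 fold change 0.76 ± 0.09, adjusted p = 1.81e-05).

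Rab6b, the paralog of the Golgi Rab6a that is best known from neurons, had 17.7, 17.6 and 16.2 CPM with Dia2 siRNA and 10, 10.9 and 10.2 CPM with control siRNA. Its log2 fold change was 0.73 ± 0.06 (adjusted p = 1.44e-06). Rab2b, a Golgi Rab close to Rab2a, had 19.5, 16.1 and 17.1 CPM with Dia2 siRNA and 10.7, 11 and 11.3 CPM with control siRNA, with a log2 fold change of 0.67 ± 0.08 (adjusted p = 1.11e-05). The libraries of both genes were separated by group. Of the exonic bases of Rab2b, 59.3% overlap an annotated gene on the opposite strand, and since strand counting is not stated, the 2 cannot be told apart.

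Smaller rises were called for Rab27b, Rab3b, Rab18, Rab6a and Rab33b, with log2 fold changes of 0.20 to 0.47. Rab27b and Rab3b serve regulated secretion, Rab18 works at the ER and lipid droplets, Rab6a is the main Golgi Rab6 and Rab33b links the Golgi to autophagy through Atg16l1. Rab6a had 150, 141 and 140 CPM with Dia2 siRNA and 120, 117 and 137 CPM with control siRNA (log2 fold change 0.21 ± 0.06, adjusted p = 0.0103). Rab27b had 9.73, 9.58 and 8.85 CPM with Dia2 siRNA and 6.05, 5.99 and 8.47 CPM with control siRNA (0.47 ± 0.12, adjusted p = 0.00545). In both genes control replicate 3 was the highest control, still below every Dia2 siRNA library. Rab18 had 192, 170 and 164 CPM with Dia2 siRNA and 123, 119 and 161 CPM with control siRNA (log2 fold change 0.38 ± 0.11, adjusted p = 0.00987). Control replicate 3 stood close to the Dia2 siRNA libraries for this gene. Rab6a and Rab33b were called by a small margin: with 1 library left out, the adjusted p of Rab6a reached 0.0557 (without Dia2 replicate 1) and passed 0.05 also without control replicate 1 or 2. That of Rab33b reached 0.0975 (without control replicate 2) and missed the threshold without any library other than control replicate 3.

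The falls in this class were modest but touched its most abundant members. Rab1 (Rab1a), which admits ER-derived vesicles to the Golgi, had 208, 194 and 178 CPM with Dia2 siRNA and 237, 236 and 288 CPM with control siRNA. Rab1b, which shares that function, had 149, 153 and 154 CPM with Dia2 siRNA and 205, 206 and 175 CPM with control siRNA. Both were below all controls in all 3 Dia2 siRNA libraries, 1.31-fold lower for Rab1 (log2 fold change -0.39 ± 0.08, adjusted p = 0.000967) and 1.28-fold lower for Rab1b (-0.36 ± 0.06, adjusted p = 0.000241). Control replicate 3 was the highest control for Rab1 and the lowest for Rab1b.

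Rab43, linked to ER to Golgi traffic of some receptors, had 73.4, 74.4 and 75.1 CPM with Dia2 siRNA and 96.9, 105 and 94.0 CPM with control siRNA (log2 fold change -0.41 ± 0.05, adjusted p = 2.02e-05). Annotated exons of Gm45140 on the same strand overlap 75.4% of its exonic bases. Gm45140 has no row of its own, so the Rab43 row may hold its reads. Rab8a had 68.0, 65.7 and 68.0 CPM with Dia2 siRNA and 80.1, 78.7 and 77.5 CPM with control siRNA (-0.23 ± 0.04, adjusted p = 0.000674), the opposite direction to its paralog Rab8b. Rab27a, which docks secretory lysosomes and exosome-bearing endosomes, had 4.17, 5 and 4.02 CPM with Dia2 siRNA and 5.34, 5.65 and 6.09 CPM with control siRNA (-0.37 ± 0.11, adjusted p = 0.0105), also opposite to Rab27b. Rab13, an exocytic Rab of epithelial junctions, was the remaining fall (-0.20 ± 0.06, adjusted p = 0.0112), which missed the threshold without Dia2 replicate 2 (adjusted p = 0.0555).

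The 5 secretory Rabs that did not pass the threshold were Rab2a, Rab10, Rab3a, Rab3d and Rab37. Rab10, which brings the glucose transporter GLUT4 to the surface of fat cells, had 218, 209 and 197 CPM with Dia2 siRNA and 187, 185 and 213 CPM with control siRNA (log2 fold change 0.09 ± 0.06, adjusted p = 0.209). Rab2a, a Golgi and lysosome-fusion Rab, had 185, 176 and 167 CPM with Dia2 siRNA and 159, 152 and 179 CPM with control siRNA (0.10 ± 0.06, adjusted p = 0.171). The groups overlapped for both through control replicate 3, and without that library Rab2a passed at 0.17 (adjusted p = 0.00081) and Rab10 at 0.16 (adjusted p = 0.00131). Of the Rab3 paralogs, which serve synaptic and endocrine secretion, Rab3b was called, with 19.4, 18.8 and 18.4 CPM with Dia2 siRNA and 15.5, 14.6 and 12.7 CPM with control siRNA (0.40 ± 0.07, adjusted p = 0.000559). Rab3d had 18.2, 18.8 and 18.6 CPM with Dia2 siRNA and 16.5, 19.3 and 18.1 CPM with control siRNA (0.05, adjusted p = 0.563). Rab3a was lower in level at 4.84, 4.85 and 5.41 CPM with Dia2 siRNA and 4.90, 6.31 and 4.53 CPM with control siRNA (-0.06, adjusted p = 0.706), so only Rab3b of the 3 tested stood apart by group. Rab37 had at most 0.195 CPM in any library, too low for a useful estimate.

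**Figure D2:**
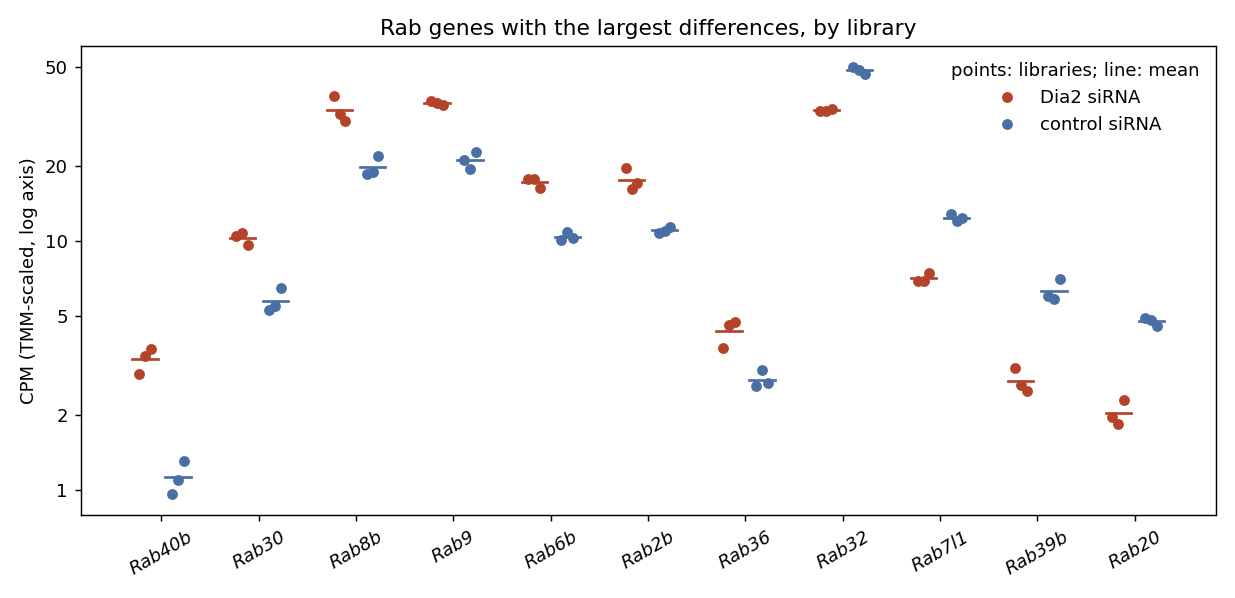
CPM (log axis, scaled by TMM factors) in each library for the 11 Rab genes named by the size rule (adjusted p under 0.05, absolute log2 fold change of at least 0.5, mean CPM of at least 2), with Dia2 siRNA in red left of control siRNA in blue, points for libraries and a line for the mean. The groups are separated for all 11 genes, with 7 higher and 4 lower in Dia2 siRNA libraries.

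Of 10 endocytic Rabs tested, 3 were higher (Rab9, Rab31, Rab5b), 2 lower (Rab7, Rab20) and 5 not called (50.0% called, against 59.2% of all genes, with a median log2 fold change of 0.065). Without control replicate 3, 5 were higher and 3 lower, with no share over all genes for that fit set beside them. Rab9, which returns mannose 6-phosphate receptors from late endosomes to the trans-Golgi network, had 36.3, 35.7 and 35.0 CPM with Dia2 siRNA and 21, 19.5 and 22.7 CPM with control siRNA. This was a 1.69-fold higher level (log2 fold change 0.76 ± 0.07, adjusted p = 1.10e-06). Rab31, of trans-Golgi to endosome traffic, had 164, 158 and 161 CPM with Dia2 siRNA and 114, 116 and 115 CPM with control siRNA, 1.40-fold higher (0.48 ± 0.04, adjusted p = 8.54e-07). In both genes the groups were well apart.

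The early endosome Rab5 has 3 paralogs, and they did not move alike. Rab5b had 162, 161 and 161 CPM with Dia2 siRNA and 124, 133 and 127 CPM with control siRNA (log2 fold change 0.33 ± 0.04, adjusted p = 3.41e-05). Rab5a had 147, 138 and 138 CPM with Dia2 siRNA and 115, 115 and 148 CPM with control siRNA (0.17 ± 0.08, adjusted p = 0.105). The overlap for Rab5a came from control replicate 3 alone, and without it the log2 fold change was 0.29 (adjusted p = 3.98e-07). Rab5c had 152, 152 and 159 CPM with Dia2 siRNA and 161, 158 and 156 CPM with control siRNA (-0.04, adjusted p = 0.457).

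Rab7 had 139, 138 and 139 CPM with Dia2 siRNA and 179, 180 and 172 CPM with control siRNA. The log2 fold change was -0.35 ± 0.04 (adjusted p = 1.78e-05), a level 1.27-fold lower, with near-equal values within each group. Rab20, a hypoxia-responsive endosomal and phagosomal Rab, had the largest fall of all Rabs, with 1.97, 1.83 and 2.29 CPM with Dia2 siRNA and 4.88, 4.82 and 4.56 CPM with control siRNA (-1.23 ± 0.12, adjusted p = 2.46e-06, 2.34-fold lower). An antisense gene overlaps 25.6% of its exonic bases. The remaining uncalled members were Rab21, which traffics integrins, Rab22a of early endosomes, and Rab24 of autophagosomes, with log2 fold changes of 0.09, 0.04 and -0.12. Without control replicate 3, Rab21 passed at 0.19 (adjusted p = 0.000386) and Rab24 at -0.13 (adjusted p = 0.0488). Annotated exons of Prelid1 on the other strand overlap 62.4% of the exonic bases of Rab24.

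Recycling Rabs had few calls. Of 9 tested, 1 was higher (Rab4b), 1 lower (Rab35) and 7 not called, a called share of 22.2% against 59.2% of all genes tested, with a median log2 fold change of -0.012 and a median absolute one of 0.112. Rab4b, of fast recycling from early endosomes, had 25.0, 25.8 and 26.6 CPM with Dia2 siRNA and 22.9, 23.6 and 21.3 CPM with control siRNA (log2 fold change 0.19 ± 0.06, adjusted p = 0.0179). The annotated gene Gm21983 shares 65.0% of its exonic bases on the same strand. Rab35, which recycles cargo to the plasma membrane and opposes the GTPase Arf6, had 54.8, 58.7 and 57.4 CPM with Dia2 siRNA and 66.6, 69.9 and 58.2 CPM with control siRNA (-0.19 ± 0.06, adjusted p = 0.0248). Its highest Dia2 siRNA value lay above the lowest control value, so the groups overlapped. Neither call was stable: that of Rab4b was lost without Dia2 replicate 2 or 3 (adjusted p = 0.0533 and 0.0826), and that of Rab35 without any 1 of Dia2 replicates 1 and 3 and control replicates 1 and 2 (adjusted p of 0.0581 to 0.124). Without control replicate 3, 2 recycling Rabs were higher and 2 lower, again with no share over all genes for that fit.

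The slow recycling Rabs Rab11a and Rab11b pointed in opposite directions without passing. Rab11a had 88.2, 80.7 and 78.8 CPM with Dia2 siRNA and 71.3, 68.6 and 81.5 CPM with control siRNA (log2 fold change 0.16, adjusted p = 0.0537). Rab11b had 151, 152 and 157 CPM with Dia2 siRNA and 165, 171 and 153 CPM with control siRNA (-0.09, adjusted p = 0.15). Both passed without control replicate 3, Rab11a at 0.23 (adjusted p = 0.000146) and Rab11b at -0.14 (adjusted p = 0.00145). Rab14 had 192, 176 and 170 CPM with Dia2 siRNA and 172, 163 and 199 CPM with control siRNA (0.01 ± 0.07, adjusted p = 0.913). Rab12, which sends transferrin receptor to lysosomes, had a log2 fold change of -0.01 and was not called. Rab4a, the scarcer Rab4, had 7.76, 7.46 and 7.44 CPM with Dia2 siRNA and 8.22, 8.79 and 7.43 CPM with control siRNA (-0.11 ± 0.08, adjusted p = 0.264). The epithelial Rab25 had at most 0.146 CPM and Rab15, best known from neurons, at most 0.39 CPM in any library, and neither was called.

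**Figure D3:**
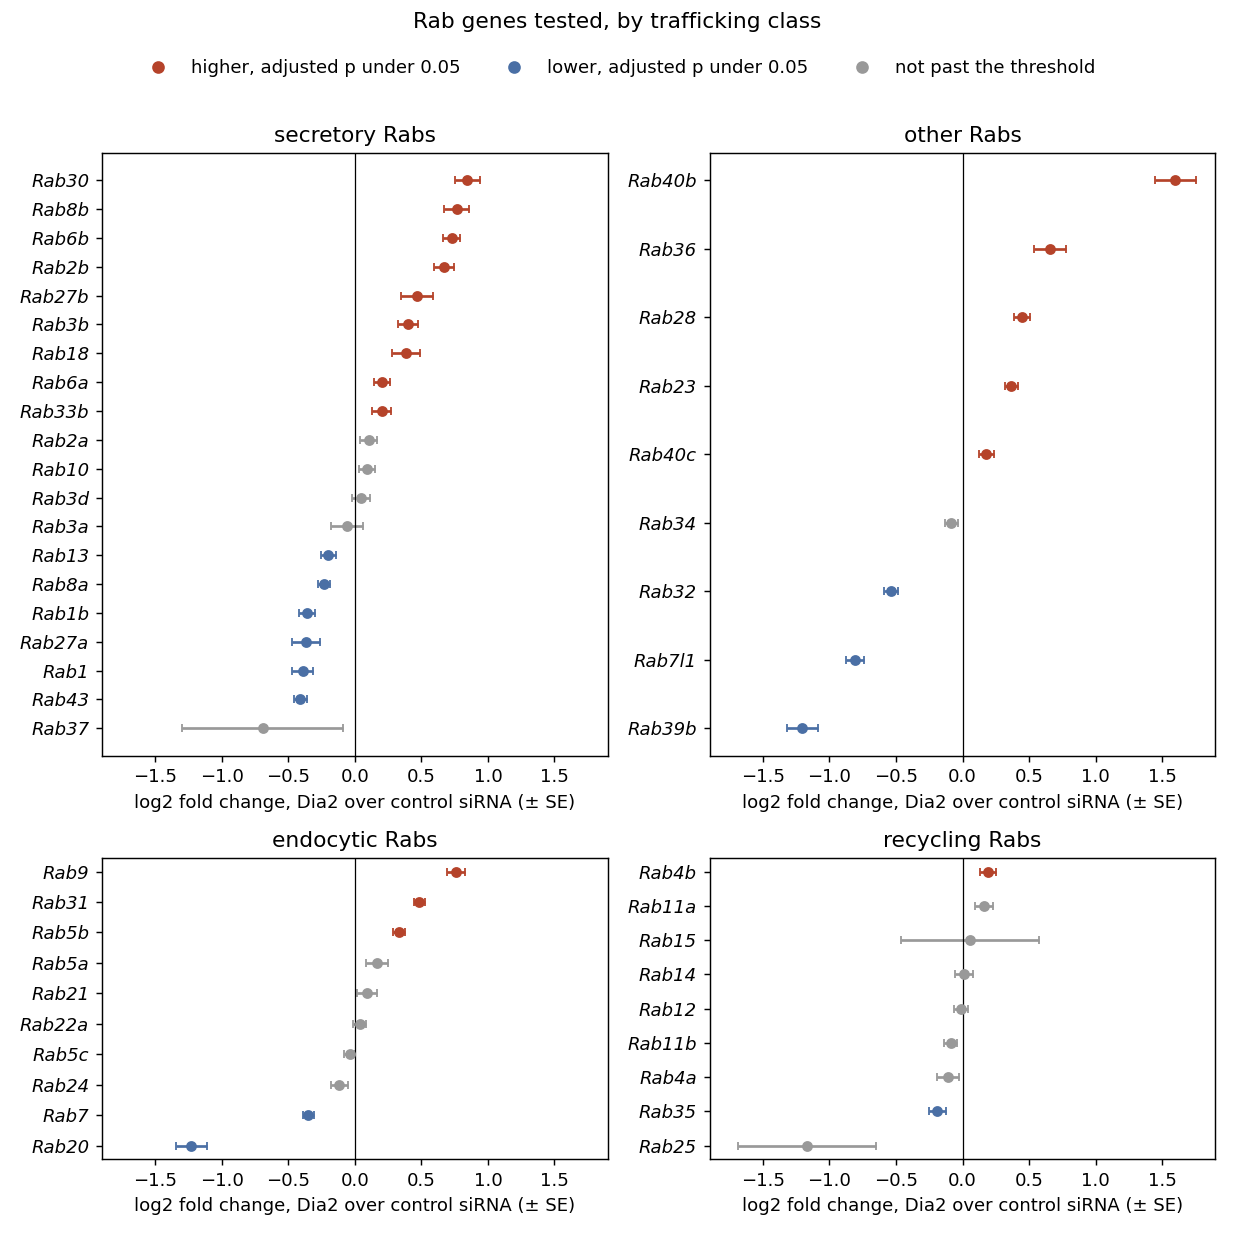
Log2 fold change of Dia2 over control siRNA ± SE (edgeR) for the 48 tested Rab genes, in panels by class; red marks higher, blue lower at an adjusted p under 0.05, grey neither. Secretory Rabs spread to both sides, while 7 of 9 recycling Rabs are grey and, apart from the scarce Rab25, lie between -0.11 and 0.16.

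Of 9 other Rabs tested, 5 were higher, 3 lower and 1, Rab34, not called (88.9% called, against 59.2% of all genes, with a median log2 fold change of 0.178). Rab40b, an adaptor of a Cullin5 ubiquitin ligase with roles in matrix protease secretion, had 2.92, 3.46 and 3.68 CPM with Dia2 siRNA and 0.961, 1.10 and 1.31 CPM with control siRNA. It was 3.03-fold higher (log2 fold change 1.60 ± 0.16, adjusted p = 2.98e-06), the largest rise of any Rab. Rab36, a Golgi Rab related to Rab34, had 3.72, 4.58 and 4.72 CPM with Dia2 siRNA and 2.60, 3.02 and 2.67 CPM with control siRNA (0.66 ± 0.12, adjusted p = 0.000593). Both are scarce genes whose groups were nonetheless apart.

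Rab23, which restrains Hedgehog signalling at the cilium, had 68.3, 64.0 and 63.5 CPM with Dia2 siRNA and 49.7, 49.7 and 52.5 CPM with control siRNA (log2 fold change 0.37 ± 0.05, adjusted p = 5.22e-05). Rab28, a ciliary Rab of photoreceptors, had 27.9, 28.0 and 26.4 CPM with Dia2 siRNA and 19.8, 20.2 and 20.3 CPM with control siRNA (0.45 ± 0.06, adjusted p = 2.99e-05). Rab40c, a paralog of Rab40b, rose by 0.18 ± 0.05 (adjusted p = 0.014), a call that was lost without Dia2 replicate 2 or 3 (adjusted p = 0.0512 and 0.0872). Rab34, the third cilium-linked member, was not called at -0.08 (adjusted p = 0.149), but passed without control replicate 3 (-0.12, adjusted p = 0.0123).

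Rab32, Rab7l1 and Rab39b fell. Rab32, of lysosome-related organelles and mitochondria, had 33.1, 33.2 and 33.7 CPM with Dia2 siRNA and 49.7, 48.3 and 46.9 CPM with control siRNA (log2 fold change -0.53 ± 0.05, adjusted p = 3.07e-06). Its paralog Rab38 was near 0 and not tested. Rab32 and Rab38 are known from melanocytes, whose 4 listed markers summed to 9.70 to 11.1 CPM with Dia2 siRNA and 9.72 to 12.1 CPM with control siRNA, most of it from Mitf. Of the 3 markers tested, Tyr was higher (log2 fold change 0.61, adjusted p = 0.0083), Mitf and Pmel were not called, and Dct was at 0 in every library. Rab7l1 (Rab29), which recruits the kinase LRRK2 to membranes, had 6.88, 6.87 and 7.44 CPM with Dia2 siRNA and 12.8, 12.0 and 12.3 CPM with control siRNA, 1.75-fold lower (-0.81 ± 0.07, adjusted p = 1.22e-06). Rab39b, a neuronal Rab linked to autophagy, had 3.08, 2.62 and 2.48 CPM with Dia2 siRNA and 5.98, 5.82 and 7.02 CPM with control siRNA, 2.30-fold lower (-1.20 ± 0.12, adjusted p = 3.01e-06). An antisense gene overlaps 18.6% of its exonic bases. Rab32 and Rab29 belong to the same Rab subfamily, and both were lower in every Dia2 siRNA library.

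Paralogs within a family shifted against each other. Rab8b made up 19.2%, 17.2% and 15.8% of summed Rab8 RPKM with Dia2 siRNA and 8.95%, 9.18% and 10.6% with control siRNA, with Rab8a as the remainder. The share of Rab27b in Rab27 was 47.2% ± 2.51 with Dia2 siRNA and 33.2% ± 3.16 with control siRNA (SD, n = 3 each). Rab6b held 7.73% ± 0.286 and 5.54% ± 0.565 of Rab6, Rab2b held 6.92% ± 0.487 and 4.8% ± 0.299 of Rab2, and Rab5b held 24.3% ± 0.291 and 20.7% ± 1.10 of Rab5, with Dia2 siRNA ahead of control siRNA in each pair. In these 5 families the b paralog was the least abundant one by RPKM and gained share, and the groups did not overlap. That ranking rests on the uneven listed lengths. By mean CPM over all libraries, Rab27b (8.11) exceeded Rab27a (5.05) and Rab5b (144) exceeded Rab5a (134). The share of Rab3b in Rab3 was likewise apart, at 40.8% ± 1.32 with Dia2 siRNA and 34.3% ± 3.16 with control siRNA. In Rab4 it was the minor paralog Rab4a that lost share, at 19.5% ± 0.855 with Dia2 siRNA and 23.0% ± 0.566 with control siRNA. Rab1 and Rab1b, which fell together, kept overlapping shares of 46.7% ± 2.41 and 47.2% ± 5.09 for Rab1. The shares come from the tested values themselves and add no independent evidence.

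**Figure D4:**
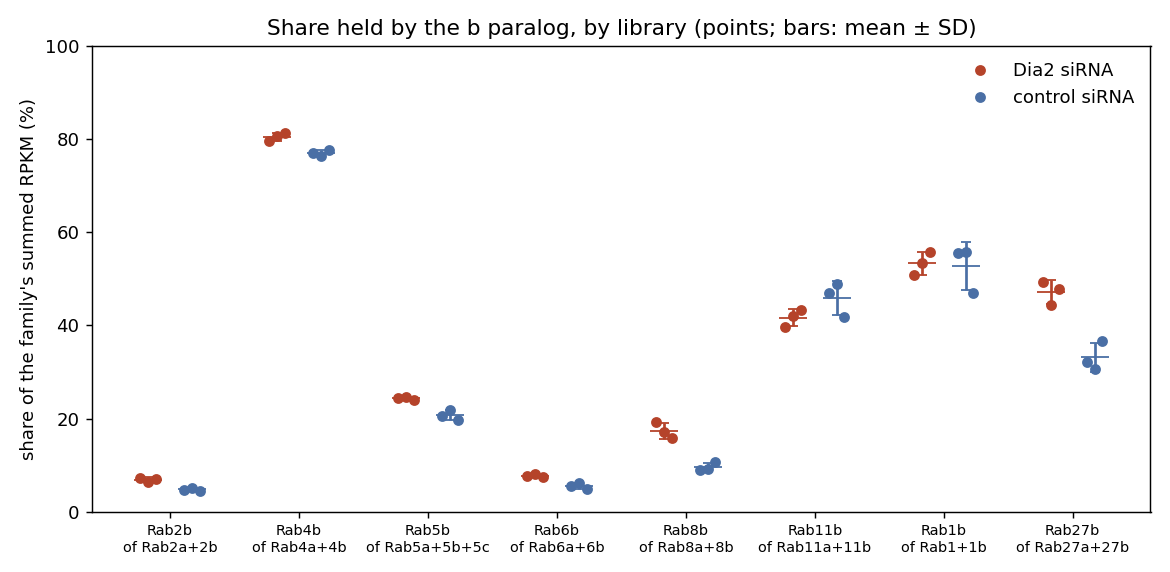
Share (%) of the b paralog in the summed deposited RPKM of its family in each library, with Dia2 siRNA in red left of control siRNA in blue, points for libraries and bars for the mean ± SD (n = 3 each). The Rab8b share lies at 15.8% to 19.2% with Dia2 siRNA and at 8.95% to 10.6% with control siRNA, while the shares of Rab1b and Rab11b overlap between the groups.

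Promoter windows from RefSeq (GRCm38.p6, 250 bases before to 50 after a start) were found for 47 members, with 59 windows in all. The Sp1-type box GGGCGG, read on both strands, was in 67.8% of them and in 35.7% of all 32851 windows of that length. CCAAT was in 42.4% and 37.4%, the E-box CACGTG in 10.2% and 7.2%, TGACGTCA in 3.4% and 1.8%, and TGACGTG in 0.0% and 2.0%, Rab windows first. These shares count windows, so a gene with several windows, such as Rab43 or Rab15, counts more than once. Neither set was limited to genes tested in these cells. Whether Rab promoters differ from those of other tested genes was not tested. The windows of Rab8b (chr9:66919656-66919955, minus strand) and Rab8a (chr8:72160950-72161249, plus strand) are shown because these paralogs moved in opposite directions. Capitals mark GGGCGG and CCAAT or their reverse complements CCGCCC and ATTGG.
Rab8b promoter: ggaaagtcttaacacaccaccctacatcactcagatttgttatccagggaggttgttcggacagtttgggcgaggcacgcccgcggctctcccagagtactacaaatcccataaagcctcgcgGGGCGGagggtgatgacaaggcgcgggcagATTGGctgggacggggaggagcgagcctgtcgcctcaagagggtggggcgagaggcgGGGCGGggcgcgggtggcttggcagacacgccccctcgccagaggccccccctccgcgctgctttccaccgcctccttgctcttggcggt
Rab8a promoter: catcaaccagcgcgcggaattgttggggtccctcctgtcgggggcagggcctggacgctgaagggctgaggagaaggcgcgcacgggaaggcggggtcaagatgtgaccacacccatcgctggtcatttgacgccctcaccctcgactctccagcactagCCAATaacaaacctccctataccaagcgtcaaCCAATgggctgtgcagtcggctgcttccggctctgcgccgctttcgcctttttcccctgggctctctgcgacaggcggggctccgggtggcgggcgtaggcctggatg
The window of Rab8b holds GGGCGG and ATTGG, and that of Rab8a holds CCAAT but no GGGCGG. A match is a string of letters and no evidence of binding.

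The 3′ UTRs of the Rabs, taken from GENCODE M21 as the longest 3′ UTR of each gene's coding transcripts, had a median of 1963 bases, against 1184 bases over all tested genes that have one. Words of 7 bases that earlier work on these same data had picked out were looked up on the mRNA strand, so the counts support nothing on their own. GCAGTAC was in 3 of the 18 higher Rabs (Rab30, Rab8b, Rab9), in 0 of the 12 lower and in 2 of the 18 uncalled ones (Rab14, Rab37), against 9.6%, 3.7% and 4.4% of all higher, lower and uncalled genes. The sites of the 3 higher Rabs and of Rab14, whose log2 fold change was 0.01, are shown with the word in capitals. They lie at chr7:92840344-92840370 (plus strand), chr9:66846834-66846860 (minus), chrX:166457273-166457299 (minus) and chr2:35182201-35182227 (minus). The Rab30 site is past the listed end of its row (chr7:92837117), and whether transcripts of these cells reach it was not tested.
Rab30 3′ UTR site: atcctaaataGCAGTACcttttcttat
Rab8b 3′ UTR site: attagagtatGCAGTACattttttctg
Rab9 3′ UTR site: aattcctacaGCAGTACtattaaagat
Rab14 3′ UTR site: tctgttggaaGCAGTACtttttactgc

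The overlapping words TATGTGA and ATGTGAA, counted as a gene with either, were in 4 of the 18 higher Rabs (Rab28, Rab30, Rab8b, Rab18), 4 of the 12 lower (Rab13, Rab35, Rab8a, Rab39b) and 3 of the 18 uncalled. Over all genes the shares were 20.1% of higher, 29.6% of lower and 20.4% of uncalled ones. The words of Rab30, Rab8a and Rab35 lie past the listed ends of their rows (chr7:92837117, chr8:72181366 and chr5:115647158). Rab39b holds 3 copies of the first and 4 of the second, of which the pair nearest its 3′ end is shown (chrX:75572089-75572115, minus strand), with TATGTGA in capitals.
Rab39b 3′ UTR site: tatttagctgTATGTGAatgaaaatat
The word AACTTAA, the capitals of the siRNA target above, was in 10 of the 48 tested Rabs (20.8%) and in 13.0% of all genes. It was in 5 of the 18 higher, 2 of the 12 lower and 3 of the 18 uncalled Rabs. Over all genes the shares were 15.5% of higher, 11.7% of lower and 12.2% of uncalled ones. The 3′ UTRs of the Rabs were also longer, with a median of 1963 bases against 1184 over all genes. Whether any of these words bears on the levels was not tested.

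The genes that load, place and read Rabs form a larger set. Of 208 listed regulators and effectors 197 were tested, with 71 higher, 45 lower and 81 not called (58.9% called, against 59.2% of all genes, with a median log2 fold change of 0.057). Among the 14 genes of prenylation, GDI and GDI displacement, 7 were higher and 4 lower (78.6% called). Both subunits of the Rab geranylgeranyl transferase fell: Rabggtb had 59.1, 60.1 and 55.8 CPM with Dia2 siRNA and 81.3, 75.1 and 79.6 CPM with control siRNA (log2 fold change -0.43 ± 0.05), and Rabggta fell by 0.40 on the log2 scale. The Rab escort protein gene Chm, which presents Rabs to that enzyme, rose (0.51), as did Yipf4 (0.59) and Yipf6 (0.40), of a family linked to GDI displacement. The membrane-extraction protein Gdi2 also rose, with 397, 377 and 365 CPM with Dia2 siRNA and 297, 291 and 313 CPM with control siRNA (0.34 ± 0.05).

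Of 43 GEF genes 15 were higher and 9 lower (55.8% called, against 59.2% of all genes). Dennd1b, an exchange factor of Rab35, had 13.4, 15.2 and 14.4 CPM with Dia2 siRNA and 44.3, 42.0 and 47.1 CPM with control siRNA. The log2 fold change was -1.63 ± 0.07 (adjusted p = 3.57e-09), a level 3.10-fold lower, against -0.19 for Rab35 itself. Ankrd27, a GEF of Rab21 and effector of Rab32, fell by 0.67, Dennd2a by 0.63 and Ccz1, part of the Rab7 GEF, by 0.59 on the log2 scale, and Fam116a (Dennd6a, a Rab14 GEF) rose by 0.62. Of the 14 subunits of TRAPP, the Rab1 and Rab11 exchange complexes, 3 were higher and 4 lower (50.0% called). Trappc2, a core subunit, had 12.4, 10.7 and 10.6 CPM with Dia2 siRNA and 3.22, 3.09 and 3.48 CPM with control siRNA (1.78 ± 0.09, adjusted p = 2.33e-08, 3.44-fold higher). Its 4 lower partners were Trappc5 (-0.66), Trappc2l (-0.60), D030016E14Rik or Trappc11 (-0.47) and Trappc1 (-0.24).

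Of 38 GAP genes, which end Rab signals, 14 were higher and 5 lower (50.0% called, against 59.2% of all genes). Tbc1d8 had 4.68, 5.16 and 5.62 CPM with Dia2 siRNA and 2.31, 2.82 and 2.50 CPM with control siRNA, a log2 fold change of 1.02 ± 0.12. Evi5l rose by 0.93, Tbc1d8b by 0.56 and Tbc1d19 by 0.47, and Grtp1 fell by 1.00 on the log2 scale. All carry the TBC domain of Rab GAPs, and their target Rabs are only partly known.

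**Figure D5:**
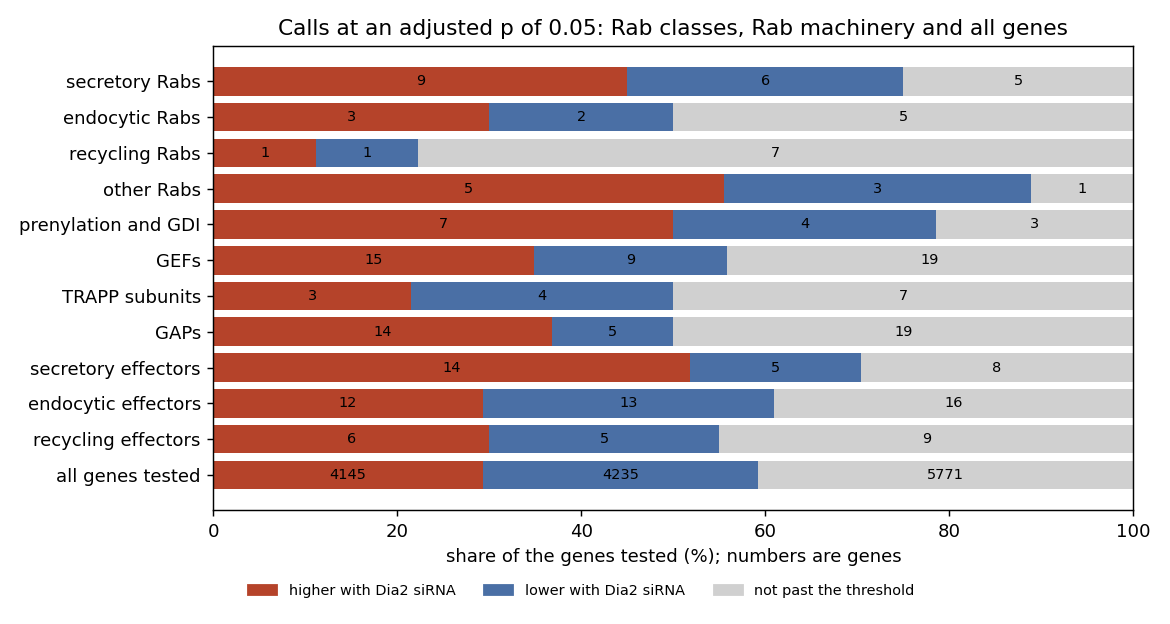
Share (%) of tested genes that were higher (red), lower (blue) or not called (grey) with Dia2 siRNA at an adjusted p of 0.05, with gene numbers inside the bars, for the Rab classes, the lists of Rab machinery and all genes tested. Recycling Rabs show 1 higher and 1 lower gene of 9, against 4145 higher and 4235 lower of 14151 genes in the bottom bar.

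Effectors carry out what a Rab signals. Of 27 secretory effectors 14 were higher and 5 lower (70.4% called, against 59.2% of all genes, median log2 fold change 0.20). Uso1 (p115), the Rab1 tether of ER to Golgi vesicles, had 152, 149 and 146 CPM with Dia2 siRNA and 96.3, 97.1 and 105 CPM with control siRNA (0.59 ± 0.05), against the direction of Rab1 and Rab1b. Optn, which binds Rab8, rose (0.56), as did the Rab27 effector Sytl2 (0.51). Sytl5, also of the Rab27-binding synaptotagmin-like family, fell, with 40.4, 39.9 and 38.7 CPM with Dia2 siRNA and 72.2, 76.4 and 70.9 CPM with control siRNA (-0.88 ± 0.05). Gcc2, a trans-Golgi golgin that binds Rab6 and Rab9, fell by 0.61 on the log2 scale.

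Of 41 endocytic effectors 12 were higher and 13 lower (61.0% called, against 59.2% of all genes). Vps35, the core retromer subunit and a Rab7 effector, had 147, 139 and 135 CPM with Dia2 siRNA and 272, 270 and 311 CPM with control siRNA (log2 fold change -1.02 ± 0.06, adjusted p = 5.42e-08). Snx5, a sorting nexin that works with retromer, had 91.5, 89.6 and 83.9 CPM with Dia2 siRNA and 197, 196 and 213 CPM with control siRNA (-1.19 ± 0.05, adjusted p = 4.33e-09). The levels were 2.03-fold lower for Vps35 and 2.29-fold lower for Snx5. Other rows of retromer and its sorting nexins in the list had smaller log2 fold changes, -0.10 for Vps26a (not called), -0.12 for Vps29, -0.18 for Snx1 and -0.21 for Snx2 (all 3 called lower). Higher were Vps8 (0.79), of the Rab5-binding CORVET tether, Fyco1 (0.77), which links Rab7 vesicles to kinesin, and Aktip (0.75), which links endosomes to dynein.

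Of 20 recycling effectors 6 were higher, 5 lower and 9 not called (55.0% called, against 59.2% of all genes, median log2 fold change 0.058). Ehd3, an EH-domain ATPase that shapes recycling tubules, had 16, 16.3 and 16.5 CPM with Dia2 siRNA and 4.77, 4.82 and 4.61 CPM with control siRNA (log2 fold change 1.78 ± 0.07, adjusted p = 1.52e-09, 3.42-fold higher). Ehd1, its far more abundant relative, had 271, 267 and 274 CPM with Dia2 siRNA and 477, 458 and 402 CPM with control siRNA (-0.72 ± 0.06). Of the Rab11 adaptors, Rab11fip2 fell by 0.67 and Rab11fip1 by 0.59 on the log2 scale, while Rab11fip3 rose by 0.26 (adjusted p = 0.00164), Rab11fip5 was not called (-0.05, adjusted p = 0.492) and Rab11fip4 was not tested. Rufy2, another Rab effector of the list, rose by 0.66.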

How the data were processed

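Groups and replicate numbers came from the sample titles. The deposited table gives counts and RPKM for every library, per the file headers. The submitters' processing notes name HTSeq, bcl2fastq and TopHat2 2.0.6, with no roles, and the human builds hg19 and GRCh37. The deposited table holds mouse symbols, and 99.3% of 22480 rows overlapped the GENCODE M21 (GRCm38) gene of their symbol, updated to current names where needed. How strand and multi-mapping reads were handled is not stated in these sources. All deposited counts were even. No 2 libraries agreed within sampling noise.

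Counts were filtered (filterByExpr, at least 10 counts scaled to library size and 15 in total), scaled by TMM factors and tested with edgeR 4.0.16 (quasi-likelihood, robust, R 4.3.3), with Benjamini-Hochberg adjustment over 14151 genes at 0.05. The SE is the absolute log2 fold change divided by the square root of F. The script was tested on simulated data. DESeq2 1.42.0, limma-voom (limma 3.58.1), other scalings and filters, halved counts, a replicate block and leaving out libraries were alternatives. Replicate numbers did not pair libraries (correlations of deviations 0.004, -0.001 and -0.084). RPKM served for levels between genes and paralog shares. Floors cover counting error only.

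Members and lists were chosen with earlier results of these data known. Full values are given for called Rabs with an absolute log2 fold change of at least 0.5 and a mean of at least 2 CPM, for the leading Rab of each class by RPKM and for paralogs. Of each machinery list, up to 5 called genes with the largest absolute log2 fold change, a mean of at least 2 CPM and no overlap between groups were named. Further genes were named after their values were seen. A gene of these lists is not reported here.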

Additional observations from a re-analysis of the deposited data

How the results depend on the processing

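Across 17 other settings, 24 of the 30 called Rabs kept their call in every one, 9 of the 18 uncalled Rabs stayed uncalled in every one, and no called Rab changed sign. The replicate block changed no Rab call, with 18 higher and 12 lower. With 1 library left out, 15 to 23 Rabs were higher and 11 to 15 lower, 7 to 11 and 5 to 6 of them secretory, 3 to 5 and 2 to 3 endocytic, 0 to 2 and 0 to 2 recycling, and 4 to 5 and 3 to 4 other. Counts of higher recycling Rabs were 2 with DESeq2, halved counts, a mean CPM of at least 1, no filter and upper-quartile factors, and 0 with no composition factor. Counts of lower recycling Rabs were 2 with limma-voom and 0 with upper-quartile factors. Leaving out Dia2 replicate 1 and control replicate 3 together, those with most Rn45s, an alternative added after seeing the data, gave 23 higher and 13 lower Rabs, with 5 higher endocytic, 2 higher recycling and 2 lower recycling Rabs. Rn45s left out of the table, also added after seeing the data, changed no Rab call. The cause of these shifts was not tested, and shares called over all genes in these settings are not given here. A shift particular to the Rabs therefore cannot be read from these counts. The median log2 fold change of all genes stayed between -0.013 and 0.04. With 3 libraries a group, differences of about 0.2 on the log2 scale lay near the threshold, and 8 uncalled Rabs passed without control replicate 3. For Rabs below about 0.1 CPM the depth sets the limit.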

Other observations

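Some GTPases close to the Rabs fell outside the symbol rule. Rab7b, a late endosome Rab listed as 5430435G22Rik, averaged 34.1 ± 0.558 CPM with Dia2 siRNA and 29.1 ± 1.91 CPM with control siRNA (SD, n = 3 each; log2 fold change 0.23 ± 0.06, edgeR adjusted p = 0.00652), the opposite direction to Rab7. Rabl3 was also higher (0.35, adjusted p = 0.00311). Rabl2, B230208H17Rik (Rabl6), Ift22 and Ift27, which include components of ciliary transport, had log2 fold changes of 0.08, 0.08, 0.11 and -0.14 and were not called. Ran, the related GTPase of nuclear transport, fell by 0.45 on the log2 scale (adjusted p = 8.49e-06).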
